A study of Mus musculus with 4 samples.

Results

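Expression of 10 mouse genes that encode inhibitory immune ligands, inhibitory receptors and galectins was followed across 4 cultures of bone marrow-derived cells. The genes were Cd200 and its receptor gene Cd200r1, Cd47 and its receptor gene Sirpa, Lair1, Cd300a, Havcr2 (which encodes TIM-3), Lgals1, Lgals3 and Lgals9. A probe was taken when its gene name on the array equalled one of these symbols and it was not a control spot. This gave 20 of the 41174 probes and 10 of the 19823 named genes. Each culture was hybridised to 1 one-colour Agilent array, so no group has replicates and no difference below has a test.

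The cells came from BALB/C mice. Antibody-treated sDCs and sDCs started from lineage-depleted haematopoietic progenitors that were seeded on a layer of Sca-1+CD117-Lin- mesenchymal stem cells (MSCs), received lipopolysaccharide (LPS, a bacterial product that matures DCs; its dose here is not given in the labels) on day 4 and had formed by day 9. The antibody-treated culture also received an antibody that neutralizes IL-10, at 10 µg/mL every 2 days. Mature DCs (maDCs) were made from immature DCs by 4 to 5 more days with 10 ng/mL LPS. Immature DCs (imDCs) were grown from marrow with GM-CSF at 10 ng/mL and IL-4 at 5 ng/mL, and the loosely adherent clusters of day 4 were selected on beads for CD11c, an integrin of DCs. LPS had thus reached every group except the imDCs, and the sDC cultures shared the stromal layer. Each population is described as purified, and the step that parted sDCs from stroma is not given in the sources read for this study.

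All 20 probes were well above background on all 4 arrays. The maDC, sDC and antibody arrays shared a slide and a scan day, and the imDC array had its own. In comparisons with imDCs, group and slide therefore cannot be told apart. The labelled cell types were checked on marker lists, each summed as linear signal with the array's 75th percentile set at 1. Of 10 dendritic markers, all 10 were at least 2-fold lower in sDCs than in maDCs and than in imDCs; their summed signal was 8.62 in antibody-treated sDCs, 9.47 in sDCs, 412 in maDCs and 292 in imDCs, and Irf4 was at background in both sDC cultures. Of 10 macrophage markers, 8 were at least 2-fold higher in sDCs than in maDCs and 10 than in imDCs, with sums of 523 in antibody-treated sDCs, 564 in sDCs, 299 in maDCs and 57.4 in imDCs. Of 10 stromal markers, 9 were at least 2-fold higher in sDCs than in either maDCs or imDCs, and Thy1 was lower (log2 signal 4.72 in sDCs, 6.63 in maDCs and 6.74 in imDCs). The stromal sums were 94.9 in antibody-treated sDCs, 172 in sDCs, 102 in maDCs and 108 in imDCs. Thy1 made up most of the sum in maDCs and imDCs: without it the other 9 markers summed to 81.2 in antibody-treated sDCs, 146 in sDCs, 2.57 in maDCs and 0.83 in imDCs. All 7 neutrophil markers with a probe were at least 2-fold lower in maDCs and in sDCs than in imDCs. Their sums were 236 in antibody-treated sDCs, 129 in sDCs, 84.0 in maDCs and 1145 in imDCs. S100a8 and S100a9 made up most of the sum in both sDC cultures (log2 signal 6.14 and 5.82 in sDCs, 4.03 and 5.34 in maDCs). Of the 7 markers, 5 were at least 2-fold lower in sDCs than in maDCs and 1 was higher, with a median difference of -1.77. All 5 mast cell and basophil markers with a value were at least 2-fold higher in maDCs than in imDCs and lower in sDCs than in either, with sums of 0.26 in antibody-treated sDCs, 0.22 in sDCs, 80.5 in maDCs and 7.81 in imDCs. These lists differed between the groups in which member genes described below differed, and their part in those differences was not tested. The stromal and neutrophil lists also differed between the 2 sDC cultures, as given below. In such bulk samples, fewer cells of a type and less RNA per cell cannot be told apart.

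CD200 is a membrane glycoprotein that has almost no signalling tail and acts by engaging CD200R1, a receptor of myeloid cells that recruits the adaptor proteins DOK1 and DOK2. CD47 is carried by most cells and engages SIRPα on macrophages and DCs, whose cytoplasmic immunoreceptor tyrosine-based inhibitory motifs (ITIMs) bind the phosphatases SHP-1 (Ptpn6) and SHP-2 (Ptpn11) and restrain phagocytosis. LAIR1 is an ITIM receptor for collagens, CD300A an ITIM receptor for phosphatidylserine and phosphatidylethanolamine, and TIM-3 a receptor for which galectin-9, HMGB1, CEACAM1 and phosphatidylserine have been described as ligands. Galectins are secreted lectins that bind β-galactosides; galectin-1 and galectin-9 are known for dampening T cell responses, and galectin-3 is abundant in macrophages.

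Levels are given as log2 of the scanner's background-subtracted intensity minus the 75th percentile of its array, so that 0 is a spot as bright as that percentile. Levels of different probes are not comparable with each other. A difference of 1 (2-fold) was the size at which genes were counted. The scanner's own error model gave 0.20 to 0.25 for a difference, which covers spotting and scanning but not culture, RNA or labelling, and differences under 2 such errors are described as not separated.

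**Figure D1:**
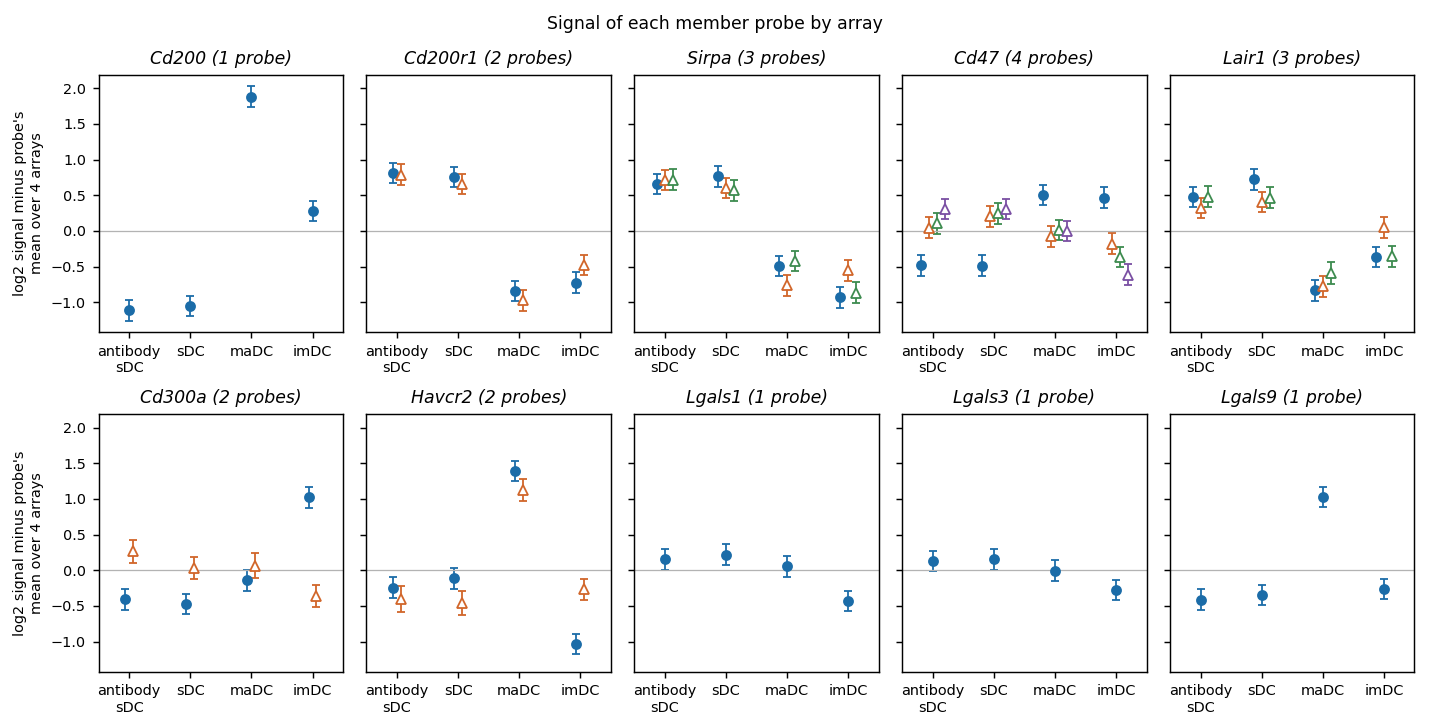
Log2 signal of each of the 20 member probes, minus that probe's own mean over the 4 arrays (vertical axis, log2 units), in antibody-treated sDCs, sDCs, maDCs and imDCs (horizontal axis). Filled circles are the probe with the highest mean signal of its gene, open triangles the other probes, and bars the scanner error of a spot. Cd200, Havcr2 and Lgals9 peak in maDCs, while Cd200r1, Sirpa and Lair1 are highest in the sDC cultures. A dimmer Lair1 probe does not separate sDCs from imDCs.

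The comparison of maDCs with imDCs asked how LPS-matured DCs differ from the cells they were made from. Havcr2, Cd200 and Lgals9 were higher in maDCs, and Cd300a was lower. That is 3 members at least 2-fold higher and 1 at least 2-fold lower out of 10, while 32.3% of the 14109 genes with a value passed 2-fold either way (21.6% higher, 10.8% lower). The share of called members was thus near that of all genes. The median over the members was 0.36, beside 0.18 over all genes. Scaling mattered for this contrast: 66.7% of the genes past 2-fold were higher in maDCs in the scale used here, against 55.1% after quantile normalization, where the median gene lay at -0.02. Set against the median gene, Havcr2 stood at 2.24, Cd200 at 1.42 and Cd300a at -1.35, and Lgals9 also stayed past 2-fold.

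Against imDCs, the sDCs differed in culture, progenitor and LPS together. Sirpa, Cd200r1 and Lair1 were higher in sDCs, and Cd300a and Cd200 were lower. These are 3 members higher and 2 lower, beside 41.5% of 15038 genes past 2-fold either way (25.4% higher, 16.1% lower). The median was 0.54 over the members and 0.21 over all genes. Of all genes past 2-fold, 61.2% were higher in sDCs here and 51.8% after quantile normalization, where the median gene lay at 0.00. Relative to the median gene, Sirpa stood at 1.49, Cd200r1 at 1.27, Cd300a at -1.71 and Cd200 at -1.54, while Lair1 lay inside 2-fold at 0.88 and Cd47 passed it at -1.16.

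The comparison of sDCs with maDCs set side by side the LPS-exposed populations made without the antibody. The receptor genes Cd200r1, Lair1 and Sirpa were 2-fold or more higher in sDCs. The ligand genes Cd200 and Lgals9 and the receptor gene Havcr2 were 2-fold or more lower. The 3 higher and 3 lower members compare with 31.0% of 14602 genes past 2-fold either way (14.2% higher, 16.8% lower). The median size of the difference was 1.31 over the 10 members, against 0.58 over all genes, and the signed medians were -0.09 and 0.03. These arrays shared a slide. The 3 contrasts above share arrays with each other, so their values are set side by side and are not separate evidence.

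**Figure D2:**
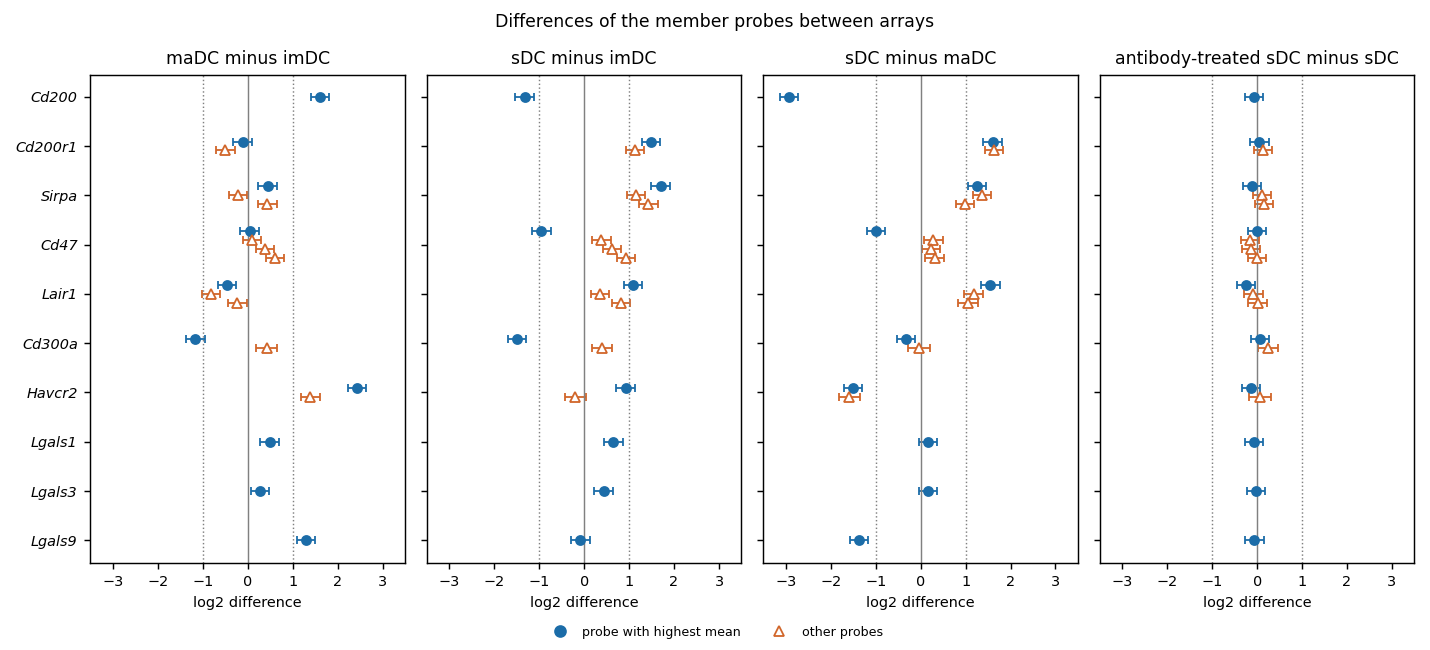
Log2 difference (horizontal axis) of every member probe in the 4 comparisons, with the scanner error of the difference as bars and dotted lines at 2-fold. In sDC minus maDC, Cd200 lies at -2.93 and Cd200r1 at 1.60, while every probe lies within 0.25 of 0 in antibody-treated sDC minus sDC.

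Cd200, the ligand, had 1 probe (mm9 chr16:45382430-45382489, minus strand). Its log2 signal was -0.19 in antibody-treated sDCs, -0.13 in sDCs, 2.81 in maDCs and 1.20 in imDCs. The maDCs stood highest and both sDC cultures lowest, with the imDCs between them and separated from each. The mast cell and basophil sums above were likewise highest in maDCs and lower in sDCs than in imDCs, and their part in the Cd200, Havcr2 and Lgals9 maxima in maDCs was not tested. The Cd200 level was 7.63-fold lower in sDCs than in maDCs (difference -2.93), and 4.17% of all genes lay as far or farther below 0 in that comparison. It was 3.04-fold higher in maDCs than in imDCs (1.61) and 2.51-fold lower in sDCs than in imDCs (-1.33).

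Cd200r1, the receptor, was highest in the sDC cultures, where Cd200 was lowest. Its brighter probe (mm9 chr16:44794670-44794729) read 3.17 in antibody-treated sDCs, 3.12 in sDCs, 1.52 in maDCs and 1.64 in imDCs. The level was 3.03-fold higher in sDCs than in maDCs and 2.80-fold higher in sDCs than in imDCs, and maDCs and imDCs were not separated on this probe. The other probe read 1.93 in antibody-treated sDCs, 1.80 in sDCs, 0.17 in maDCs and 0.67 in imDCs, which is 1.63 higher in sDCs than in maDCs and 1.14 higher in sDCs than in imDCs. Its mapped interval (mm9 chr16:44792935-44794321) is longer than the probe by 1327 bases, so the probe spans an intron. It is shown, with those of Sirpa and Lgals3 that do the same, because a match over its full length needs joined exons. Where the junction falls in each probe was not located, and a partial match to unspliced RNA was not tested. All letters are in lower case and no base is singled out.
Cd200r1 probe: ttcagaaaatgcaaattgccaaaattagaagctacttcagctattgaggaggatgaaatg
Sirpa probe: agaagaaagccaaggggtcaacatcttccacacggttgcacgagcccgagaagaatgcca
Lgals3 probe: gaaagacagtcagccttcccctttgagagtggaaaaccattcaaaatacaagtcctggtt

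Sirpa was measured by 3 probes, and all of them were higher in the sDC cultures. The brightest (mm9 chr2:129457869-129457928) read 6.51 in antibody-treated sDCs, 6.62 in sDCs, 5.37 in maDCs and 4.92 in imDCs. Its difference was 1.26 for sDCs against maDCs and 1.70 (3.24-fold) for sDCs against imDCs. The intron-spanning probe printed above (mm9 chr2:129444298-129453707) gave 0.99 and 1.43 in these comparisons, and the remaining probe 1.37 and 1.15. In maDCs against imDCs the 3 probes gave 0.44, 0.44 and -0.21, so they do not settle an order of these groups. Sirpa belongs to a family of related genes, and whether a probe also takes up RNA of a relative was not tested.

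Cd47, the ligand of SIRPα, gave different answers at different probes. The brightest, which spans an intron (mm9 chr16:49906910-49911025), read 4.90 in antibody-treated sDCs, 4.90 in sDCs, 5.89 in maDCs and 5.85 in imDCs. It was thus lower in sDCs, with a difference of -0.99 from maDCs and of -0.95 from imDCs, just inside 2-fold. The other 3 probes lie further along the plus strand (mm9 chr16:49912306-49914943), and the array ties them to a different transcript record from the brightest. They gave 0.23 to 0.31 for sDCs against maDCs, which is not separated. For sDCs against imDCs they gave 0.38, 0.61 and 0.92, of which the last 2 were separated and opposite in sign to the brightest probe. The median over the 4 probes had the opposite sign to the brightest, 0.26 for sDCs against maDCs and 0.50 for sDCs against imDCs. The brightest probe passed 2-fold against imDCs after quantile normalization (-1.30), after normexp background correction (-1.06) and in the values of the authors' deposited table (-1.23), and against maDCs after normexp (-1.07). No direction is therefore given for Cd47.

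Lair1, the collagen receptor, was highest in sDCs and lowest in maDCs on its brightest probe (mm9 chr7:3959947-3960006, minus strand). The log2 signal was 2.42 in antibody-treated sDCs, 2.67 in sDCs, 1.12 in maDCs and 1.58 in imDCs. All 3 probes were 2-fold or more higher in sDCs than in maDCs, by 1.55, 1.18 and 1.05. Against imDCs the sDC difference was 1.09, 0.35 and 0.82, so that it was past 2-fold on the brightest probe only. The difference of 0.35 was not separated, and the median over probes was 0.82. For maDCs against imDCs the 3 probes gave -0.46, -0.82 and -0.23, all inside 2-fold, and the last inside 2 scanner errors.

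Cd300a, the other lipid-binding receptor beside TIM-3 in the set, was highest in imDCs on its brighter probe, as were the neutrophil markers above, whose part was not tested. That probe (mm9 chr11:114762469-114762528) read -0.23 in antibody-treated sDCs, -0.30 in sDCs, 0.03 in maDCs and 1.20 in imDCs. The level was 2.24-fold lower in maDCs than in imDCs and 2.82-fold lower in sDCs than in imDCs, while sDCs and maDCs were not separated. The dimmer probe, at processed intensities of 122 in antibody-treated sDCs, 102 in sDCs, 119 in maDCs and 118 in imDCs, gave 0.42 for maDCs against imDCs and 0.39 for sDCs against imDCs, neither separated. The median over both probes was -0.37 for maDCs against imDCs and -0.55 for sDCs against imDCs, inside 2-fold. The lower level of Cd300a thus rests on 1 probe and on the array of the other slide.

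Havcr2, the TIM-3 gene, showed the largest difference of the set between maDCs and imDCs. Its brighter probe (mm9 chr11:46294650-46294709) read 1.48 in antibody-treated sDCs, 1.61 in sDCs, 3.12 in maDCs and 0.69 in imDCs. The maDCs stood above all other groups and the imDCs below them. The level was 5.38-fold higher in maDCs than in imDCs, and 5.31% of all genes were as far or farther above 0. In sDCs it was 2.85-fold lower than in maDCs. Between sDCs and imDCs the brighter probe gave 0.92 and the dimmer -0.20, so only the maximum in maDCs was shared by both probes; the dimmer gave 1.39 for maDCs against imDCs and -1.59 for sDCs against maDCs.

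Lgals9, which encodes a described ligand of TIM-3, also peaked in maDCs (1 probe, mm9 chr11:78776964-78777023, minus strand). Its log2 signal was 0.54 in antibody-treated sDCs, 0.61 in sDCs, 1.98 in maDCs and 0.69 in imDCs. It was 2.44-fold higher in maDCs than in imDCs and 2.59-fold lower in sDCs than in maDCs. The other 3 groups were not separated from each other.

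Lgals1 and Lgals3 varied little across the arrays. The probe of Lgals1 (mm9 chr15:78760566-78760625) read 7.56 in antibody-treated sDCs, 7.63 in sDCs, 7.46 in maDCs and 6.98 in imDCs. It was higher than in imDCs by 0.65 in sDCs and by 0.48 in maDCs. These became 0.24 and 0.09 after quantile normalization, and 0.40 and 0.21 in the authors' deposited table. They were 0.62 and 0.44 when scaled to the median of probes well above background on all 4 arrays, and 0.54 and 0.41 after normexp. Lgals3 (mm9 chr14:48004398-48005214, the intron-spanning probe above) read 8.09 in antibody-treated sDCs, 8.11 in sDCs, 7.95 in maDCs and 7.68 in imDCs. Its difference from imDCs was 0.43 in sDCs and 0.27 in maDCs, but after quantile normalization they were -0.00 and 0.01. The authors' deposited table gave 0.00 for sDCs and -0.08 for maDCs. Scaling to the median of probes well above background on all 4 arrays gave 0.41 and 0.23, and normexp gave 0.47 and 0.25. The sign was thus kept in those scalings, and no direction holds across all of them. Quantile normalization gives spots of equal rank the same value, so it leaves little room for a difference at the brightest probes. Both galectin probes were bright, at processed intensities of 250681 to 409609, and neither was marked as saturated on any array.

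Neutralizing IL-10 during sDC formation went with no 2-fold difference in any member. Against sDCs, 0 of 10 members and 0 of 20 probes passed 2-fold in antibody-treated sDCs, where 2.12% of 14394 genes did (0.861% higher, 1.26% lower). With so few genes past 2-fold, a count of 0 of 10 members was near that share. The 20 probes lay between -0.25 (the brightest Lair1 probe) and 0.24 (the dimmer Cd300a probe), and 0 of them lay beyond 2 scanner errors. The median size was 0.06 over the members and 0.11 over all genes. Over the same pair of arrays the summed stromal markers were lower (94.9 in antibody-treated sDCs, 172 in sDCs), with 1 of 10 markers past 2-fold and a median difference of -0.89. Neutrophil markers were higher, with 5 of 7 past 2-fold and sums of 236 in antibody-treated sDCs and 129 in sDCs. With 1 array per culture, a difference smaller than that between separate cultures could not be detected.

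**Figure D3:**
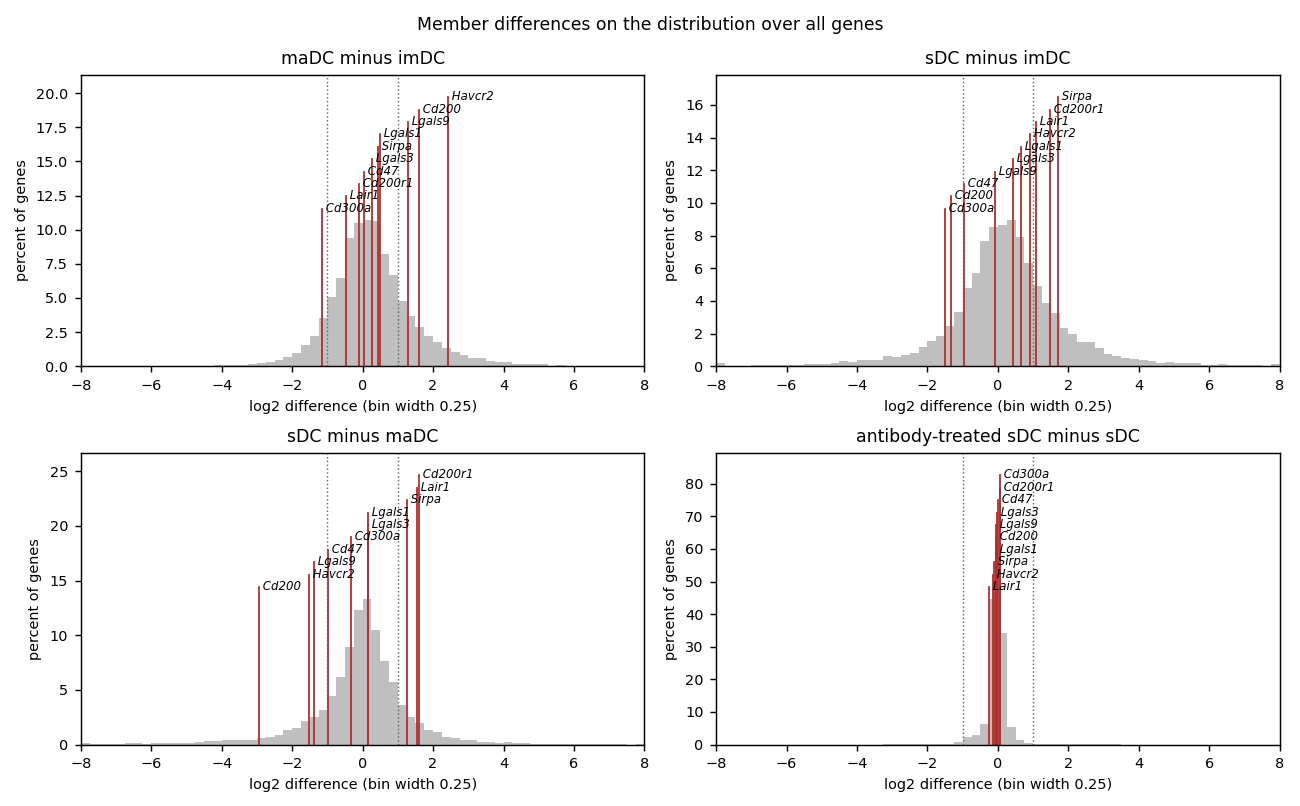
Distribution of the log2 difference over all genes with a value (grey bars, percent of genes per bin of 0.25; genes beyond 8 either way are counted in the end bins) in the 4 comparisons, with a red line at each member's difference and dotted lines at 2-fold. The heights of the red lines carry no value; in sDC minus maDC the members lie on both sides of the grey peak, with Cd200 at -2.93, and in antibody-treated sDC minus sDC all lie within it.

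The sequences upstream of the members were read for letters of known motifs, because Cd200, Havcr2 and Lgals9 shared a maximum in maDCs. Lair1 read lowest there, though inside 2-fold of imDCs on every probe, and was taken beside them. RefSeq (GRCm38.p6) promoter windows, from 250 bases before to 50 after the annotated start, were matched by symbol for 7 of the 10 genes, with 8 windows in all. Those of the genes that peaked in maDCs and that of Lair1 are printed 5′ to 3′ on the gene's strand. Capitals mark any match, on either strand, to 5 motifs: NF-kB (GGG and CC with 5 bases of any kind between them), the interferon-stimulated response element or ISRE (TTTC and TTTC with 2 bases between), GAS (TTCNNNGAA), AP-1 (TGANTCA) and PU.1 (GAGGAA). Matches that overlap were each counted.
Cd200, chr16:45409004-45409303, minus strand: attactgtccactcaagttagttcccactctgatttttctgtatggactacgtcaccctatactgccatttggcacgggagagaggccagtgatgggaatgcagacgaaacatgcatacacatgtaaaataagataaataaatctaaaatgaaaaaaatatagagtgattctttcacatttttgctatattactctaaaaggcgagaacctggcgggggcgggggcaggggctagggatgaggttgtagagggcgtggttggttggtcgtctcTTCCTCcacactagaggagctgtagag
Havcr2, chr11:46454681-46454980, plus strand: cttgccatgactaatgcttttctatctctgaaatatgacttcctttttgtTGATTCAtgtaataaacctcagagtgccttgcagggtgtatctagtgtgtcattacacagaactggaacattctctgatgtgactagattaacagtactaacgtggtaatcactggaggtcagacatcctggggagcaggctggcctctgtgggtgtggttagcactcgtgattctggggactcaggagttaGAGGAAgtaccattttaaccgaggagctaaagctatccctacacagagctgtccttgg
Lgals9, chr11:78984875-78985174, minus strand: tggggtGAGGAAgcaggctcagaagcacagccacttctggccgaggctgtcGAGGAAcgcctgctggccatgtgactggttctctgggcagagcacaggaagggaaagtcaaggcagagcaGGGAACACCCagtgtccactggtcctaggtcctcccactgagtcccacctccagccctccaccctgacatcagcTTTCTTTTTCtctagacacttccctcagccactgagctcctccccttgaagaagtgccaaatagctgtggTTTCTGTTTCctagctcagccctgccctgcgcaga
Lair1, chr7:4063155-4063454, minus strand: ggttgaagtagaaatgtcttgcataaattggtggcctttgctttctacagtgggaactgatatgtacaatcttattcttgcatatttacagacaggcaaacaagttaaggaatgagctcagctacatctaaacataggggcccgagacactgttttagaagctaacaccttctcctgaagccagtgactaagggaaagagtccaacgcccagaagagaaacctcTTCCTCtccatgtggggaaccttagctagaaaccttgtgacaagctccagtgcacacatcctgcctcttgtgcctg

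The Lgals9 window held 2 ISRE matches, whose first bases lie at -55 and 15 with the annotated start counted as 0. An ISRE match was present in 3.44% of all 32851 windows and in 1 of the 8 member windows. Havcr2 held an AP-1 match at -200, a motif found in 7.81% of all windows and in no other member's. The 6 letters of PU.1 occurred in 5 of 8 member windows and in 28.3% of all windows, with a match at 23 in Cd200, -8 in Havcr2 and -26 in Lair1. The loose NF-kB letters occurred in 3 of 8 member windows, among them that of Lgals9 at -129, and in 50.8% of all. A GAS match was in 0 of 8 and in 8.30% of all windows. PU.1 letters were in all 4 printed windows, and no other motif was shared by the windows of Cd200, Havcr2 and Lgals9. A match of letters is not a bound site, and these arrays did not measure binding.

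Genes around the members, namely their ligands, family relatives and signalling partners, were read from a list of 52, of which 48 had a probe. In maDCs against imDCs, 10 were at least 2-fold higher and 8 lower out of 42 with a value, beside 32.3% of all genes past 2-fold either way, and their median was 0.05 beside 0.18 over all genes. In sDCs against imDCs, 15 were higher and 7 lower of 43, beside 41.5% of all genes, with a median of 0.49 beside 0.21. In sDCs against maDCs, 18 were higher and 8 lower of 43, beside 31.0% of all genes, with a median of 0.54 beside 0.03. Between antibody-treated sDCs and sDCs, 0 of 38 passed 2-fold, beside 2.12% of all genes.

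All 4 collagen genes on the list, whose products are ligands of LAIR1, were 2-fold or more higher in sDCs than in maDCs and than in imDCs. Col1a1, Col1a2 and Col3a1 encode fibrillar collagens and are also on the stromal marker list, whose part was not tested. Col4a1, a basement membrane collagen gene, was higher in sDCs by 1.63 than in maDCs and by 2.69 than in imDCs on its brightest probe, and by 2.54 and 5.05 on the other. Col1a1 read 4.77 in antibody-treated sDCs, 5.57 in sDCs, -2.69 in maDCs and -2.59 in imDCs. Its difference was 8.25 for sDCs against maDCs and 8.16 for sDCs against imDCs, and other probes of the gene, at background in maDCs, gave smaller values or bounds of the same sign. Col1a2 was higher in sDCs by 7.34 than in maDCs and by 7.20 than in imDCs. Col3a1 was higher in sDCs than in maDCs by 8.61 on its brightest probe, and at least 4248-fold higher in sDCs than in imDCs, where that probe was at background. A dimmer Col3a1 probe, at background in maDCs and imDCs, gave only lower bounds on the log2 difference, of 0.34 for sDCs against maDCs and 2.18 for sDCs against imDCs. In maDCs the brightest probe was at least 10.9-fold higher than in imDCs. In antibody-treated sDCs against sDCs the differences were -0.80 for Col1a1, -0.84 for Col1a2 and -0.98 for Col3a1, inside 2-fold.

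Relatives of the receptors took several courses. Sirpb1a, which encodes a relative of SIRPα, read 5.81 in antibody-treated sDCs, 5.84 in sDCs, -0.03 in maDCs and 0.09 in imDCs, a difference of 5.87 for sDCs against maDCs and 5.75 for sDCs against imDCs. Cd200r3, an activating relative of CD200R1 found on mast cells and basophils, was 2.63 higher in maDCs than in imDCs. It was at background in sDCs, which gives a bound of -6.71 on the log2 difference from maDCs and a level at least 16.9-fold lower than in imDCs. Markers of mast cells and basophils took the same course, as given above.

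The TIM relatives Timd4, Timd2 and Havcr1 were higher in maDCs than in imDCs by 4.15, 3.26 and 1.22 on their brightest probes. Timd4 read -6.92 in imDCs, near the lowest signal well above background on that array (-7.28). Other probes gave 1.655 for Timd2 and 1.72 for Havcr1. All 3 genes were at background in sDCs. They were thereby at least 9.63-fold, at least 14.4-fold and at least 10.2-fold lower in sDCs than in maDCs, and a dimmer Timd2 probe gave a bound of -0.80 on the log2 difference. Havcr1 was also at least 4.39-fold lower in sDCs than in imDCs. Of the TIM-3 ligands on the list, Ceacam1 was lower in maDCs than in imDCs (-2.26), opposite in sign to Havcr2 and Lgals9. The brightest Hmgb1 probe gave -1.02 for maDCs against imDCs, while its other probes gave -0.39 and -0.17 and were not separated. Lgals3bp, which encodes a galectin-3-binding glycoprotein, gave 3.12 for maDCs against imDCs and -1.77 for sDCs against maDCs.

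Among signalling partners, Dok2, the adaptor gene downstream of CD200R1, was lower in maDCs than in imDCs, with a difference of -1.52. It read 5.20 in antibody-treated sDCs, 5.23 in sDCs, 3.75 in maDCs and 5.27 in imDCs, so that maDCs stood apart from all other groups. Clec4a2, which encodes an ITIM lectin receptor, was also lower in maDCs than in imDCs (-2.11), as was Cd300lg (-1.62). The neutrophil markers were also lower in maDCs than in imDCs, and their part in Dok2, Ceacam1, Clec4a2 and Cd300lg was not tested. Pecam1, another ITIM receptor gene, was lower in sDCs than in maDCs (-3.61) and than in imDCs (-4.73), and Siglece was at least 5.09-fold lower in sDCs than in imDCs. Of the 6 ITIM effector genes, 1 (Dok2) was past 2-fold between sDCs and maDCs, beside 31.0% of all genes. In maDCs against imDCs, 2 of the 6, Dok2 and Ptpn6, were 2-fold or more lower, beside 10.8% of all genes. Ptpn6 gave -1.17 there on its brightest probe, and its other probes gave -1.72 and a bound of -0.04. The part of the neutrophil markers in Ptpn6 was not tested. In sDCs against imDCs, 0 of the 6 passed 2-fold on their brightest probes, beside 41.5% of all genes. Ptpn6 gave -0.64 there on its brightest probe, and its other probes gave -0.49 and -1.45, the last past 2-fold.

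**Figure D4:**
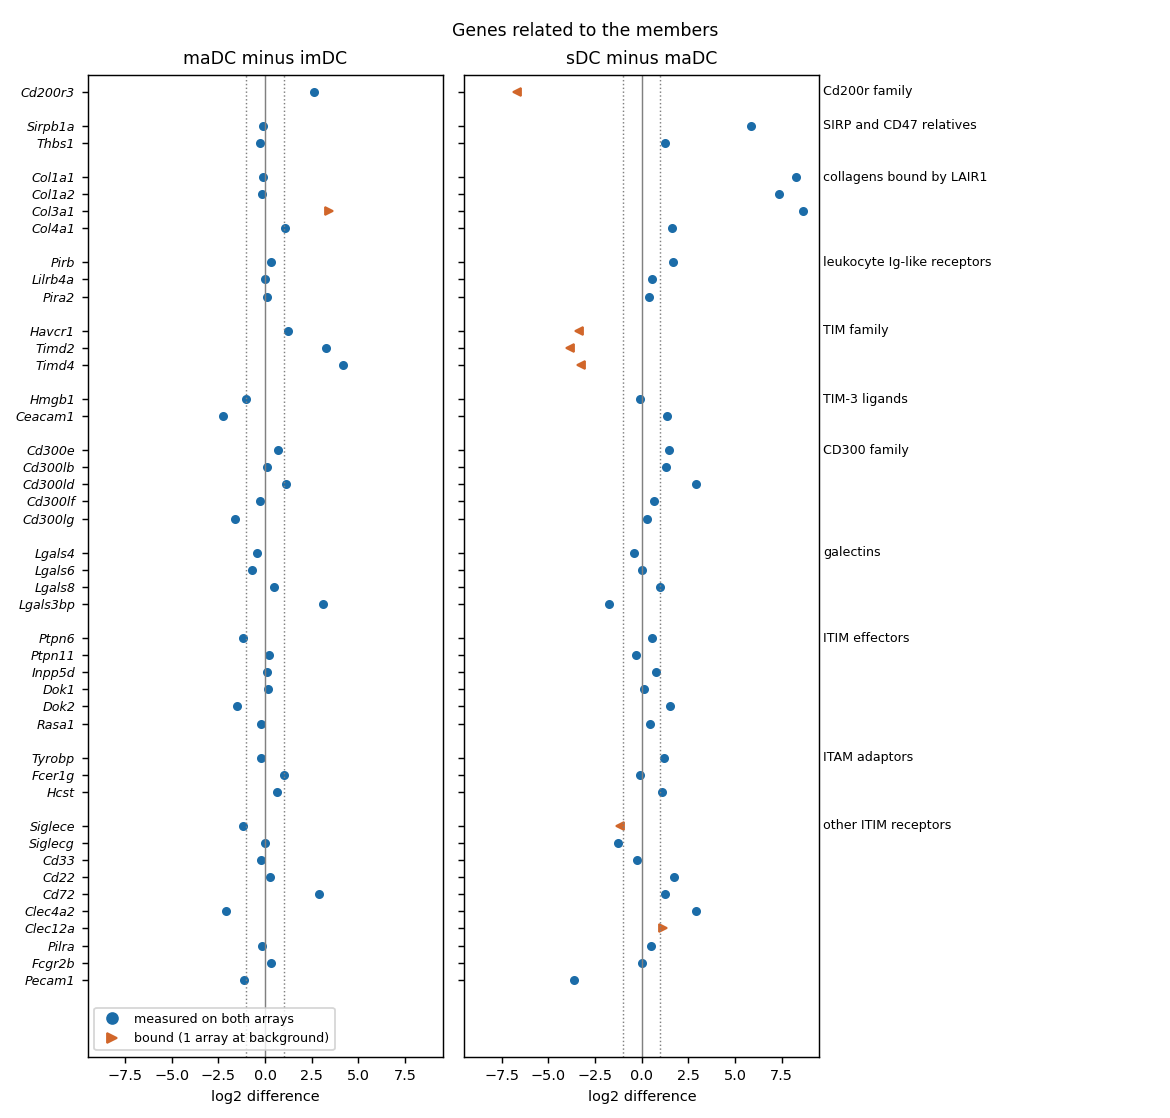
Log2 difference (horizontal axis) of the related genes with a value in either of 2 comparisons, maDC minus imDC at left and sDC minus maDC at right, grouped by their tie to the members. Circles were measured on both arrays, triangles are bounds where 1 array was at background and point away from 0, and dotted lines mark 2-fold; the fibrillar collagens and Sirpb1a lie beyond 5 at right, and the TIM genes lie right of 1 at left and left of -3 at right.

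The genes whose pattern over the 4 arrays lay nearest to each member were taken from 12943 genes well above background on all arrays, by the Euclidean distance between log2 signals centred on their own mean. The nearest to Cd200 were 2900052L18Rik (distance 0.06) and Fndc5 (0.08), and to Havcr2 Pde10a (0.11) and Cd274 (0.13), which encodes the inhibitory ligand PD-L1. Cd274 read 3.73 in antibody-treated sDCs, 3.82 in sDCs, 5.29 in maDCs and 2.77 in imDCs. S1pr2 and Plcb3 lay nearest to Cd200r1, Ctso and Fbxl4 to Sirpa, Lyn and Rcn2 to Lair1, and Eid2 and Il2rg to the brightest Cd47 probe. Lyn, which encodes a kinase that phosphorylates ITIMs, read 4.62 in antibody-treated sDCs, 4.80 in sDCs, 3.34 in maDCs and 3.69 in imDCs. For Cd300a the nearest were Vac14 and Mcm3ap, for Lgals1 Arid1b and Rps14, for Lgals3 Lce1m and Yipf4, and for Lgals9 4930432J09Rik and 2900093K20Rik. The distances describe these 4 arrays only, and nothing about function or control is read from them.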

How the data were processed

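For every array the authors deposited the scanner's own table, in which spot intensity is background-subtracted. Per the file headers, the software was Agilent Feature Extraction 10.5.1.1, spatial and multiplicative detrending and surrogates for dim spots were on, and probe positions are on mm9; version 9.1 is named in the submitters' processing notes. The authors' deposited value table is on a log2 scale (each column correlated at 0.997 to 1.00 with log2 intensity across probes, median 6.31). Its centring is unknown. Each one-colour array held 1 sample, so no value is a ratio whose orientation could be in doubt. The sign of a small difference can still depend on probe and scaling, as for Cd47 and Lgals3.

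Log2 intensity was scaled by subtracting its 75th percentile over the 43379 non-control spots of the array, and outlier-marked spots were dropped (76 to 148 an array). Spots of a probe were averaged, and it counted as well above background if at least 50% of them carried that mark (61.2% to 69.7% of spots did). Probes spotted 10 times an array had a median SD of 0.05 to 0.06 log2 units between spots. The probe with the highest mean stood for its gene. Where 1 array of a pair was at background, the difference is a bound, taken against the higher of the dim probe's signal and the lowest signal well above background. RefSeq tables of GRCm38.p6 gave names (25097 probes by accession, 6333 by symbol, 1640 by synonym, 8103 unnamed) and promoters; promoters of Cd200r1, Sirpa and Lgals1 were not used here, nor was an mm9 annotation, so exon and UTR positions of probes are not given.

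With 1 array per group there is no test, and the number of arrays limits the precision. All members are named in every comparison, with the 2 nearest patterns of each. From the related list, the 4 largest differences past 2-fold in each direction are named. Hmgb1 and Ptpn6 were named after their values were seen. The members and lists were chosen with earlier results of these data known. The scripts were tested on simulated data. The alternatives were quantile normalization, scaling on probes above background on all 4 arrays, normexp with offset 50, the deposited values, dropping bounds, and the median over a gene's probes. R 4.3.3 with limma 3.58.1, Python 3.11.15, numpy 2.4.6, pandas 2.3.3 and matplotlib 3.10.9 were used.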

Additional observations from a re-analysis of the deposited data

How the results depend on the processing

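Of the 6 alternatives, dropping bounds could move no member difference, since all member probes were above background, and the median over probes could move none of the 4 genes with 1 probe. Of the other 184 recomputed member differences, 159 lay within 1 scanner error of the reported value and 25 farther away. For the 15 member differences past 2-fold, all 70 such values kept their sign and 67 stayed past 2-fold. The 3 that did not came from the median over the probes of a gene, which combines probes that disagree: Cd300a at -0.37 in maDCs against imDCs and -0.55 in sDCs against imDCs, and Lair1 at 0.82 in sDCs against imDCs. With that setting, 0 members were 2-fold lower in maDCs than in imDCs and 1 in sDCs than in imDCs. Of 114 recomputed values of differences inside 2-fold, 4 passed it, all of the brightest Cd47 probe. Cd200 between sDCs and maDCs ranged from -3.08 to -2.88, and Havcr2 between maDCs and imDCs from 1.91 to 2.52. No paired analysis was possible because each group has 1 array. The spread between cultures is unknown, the slide cannot be told apart from the imDC group, and near-identical relatives may share probe signal.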

Other observations

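A further probe lies near the Cd47 locus but carries the name AK043151, a cDNA clone that the array's description ties to CD47, and was therefore not among the 20 (mm9 chr16:49856792-49856851, plus strand). Its log2 signal was -2.17 in antibody-treated sDCs, -2.49 in sDCs, -0.87 in maDCs and 0.44 in imDCs. The difference was -1.61 for sDCs against maDCs, -2.93 for sDCs against imDCs and -1.32 for maDCs against imDCs. The sign in sDCs is that of the brightest Cd47 probe. It was singled out after its values were seen, and which transcript it reads was not tested.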
